A study of Mus musculus with 4 samples.

Results

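Oxidative phosphorylation (OXPHOS) genes were taken as those whose symbol began with mt-, Nduf, Uqcr, Atp5 or Cox4 to Cox8, with symbols marked as pseudogenes left out. This gave 104 of the 33565 genes listed, of which 13 are encoded in mitochondrial DNA and 91 in the nucleus. Their RNA was measured in single cells of 3 mouse cell lines that were barcoded together in 1 CapSeq library, a split-pool method in which cells receive barcode segments in successive plates. Neuro-2a (N2a) is a neuroblastoma line, NIH/3T3 is an embryonic fibroblast line, and the mouse embryonic stem cells (mESCs) were of the E14TG2a line. N2a and NIH/3T3 cells were grown in DMEM with fetal bovine serum and penicillin-streptomycin. The mESCs were kept on gelatin in DMEM with more serum, penicillin-streptomycin, sodium pyruvate, β-mercaptoethanol, L-alanyl-L-glutamine, non-essential amino acids, mouse leukemia inhibitory factor, CHIR99021 and PD0325901, so that for mESCs the effects of line and medium cannot be told apart. No genotype, treatment or time point separated cells within a line.

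The first barcode segment (BC1) recorded the line, since each line filled its own wells of the BC1 plate. Barcodes with at least 1000 unique molecular identifiers (UMIs, 1 per captured molecule) were used as cells, which gave 2330 N2a cells with 17966186 UMIs, 2052 NIH/3T3 cells with 11734702 UMIs and 2155 mESCs with 12347083 UMIs. The 9 marker genes for the line labels were picked with their values in these data known, so their order was set by that choice. All 9 were highest in their own line, and the higher of their levels in the other lines was 0.0907% to 0.622% of it. This range describes these 9 genes only. BC1 is part of each barcode, so by construction the lines shared 0 barcodes. Each line was 1 sample without replicates, so the lines were compared without a test. The 95% intervals below are exact binomial or Poisson intervals that cover counting error only. The spread over the 32 BC1 sequences of a line, each with 33 to 102 cells, is given as the lowest, median and highest value; these are wells of 1 experiment, not biological replicates.

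OXPHOS is carried out in the inner mitochondrial membrane, where complexes I, III and IV pass electrons to oxygen and pump protons, and complex V (ATP synthase) uses the returning protons to make ATP. The catalytic membrane core of these complexes is encoded partly by mitochondrial DNA, which is transcribed from both strands into long precursors that are cut into single messengers, while the remaining subunits are encoded in the nucleus and imported. Complex II has nuclear subunits only. Several complex IV subunits have paired genes, with a widely expressed form and a form best known from muscle or testis.

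Sequences are shown for 3 places where mitochondrial genes share 7 bases or more (mt-Atp6 and mt-Co3 also share 1 base), because these bases belong to both genes, and for the 3 pairs of complex IV genes that separated the lines most. The mitochondrial windows are from GRCm39, with the plus strand written 5′ to 3′ and the shared bases in capitals. The end of mt-Atp8 and the start of mt-Atp6 share 43 bases (chrM:7907-7989 shown), mt-Nd4l and mt-Nd4 share 7 bases (chrM:10147-10193), and mt-Nd5 and mt-Nd6, which lie on opposite strands, share 14 bases (chrM:13532-13585).
mt-Atp8 and mt-Atp6: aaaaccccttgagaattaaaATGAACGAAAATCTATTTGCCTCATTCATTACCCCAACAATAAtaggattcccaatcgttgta
mt-Nd4l and mt-Nd4: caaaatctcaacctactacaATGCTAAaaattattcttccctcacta
mt-Nd5 and mt-Nd6: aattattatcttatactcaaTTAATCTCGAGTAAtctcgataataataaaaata

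The coding sequences of the nuclear pairs are from GRCm39 with GENCODE M39 transcripts, with capitals for bases that differ from the partner or have no aligned partner. Cox7b (chrX:105055638-105066240, plus strand, 243 coding bases) and Cox7b2 (chr5:71598701-71705630, minus strand, 249 coding bases) were identical at 159 of 243 aligned bases (65.4%). Cox7a2 (chr9:79653049-79667162, minus strand) and Cox7a1 (chr7:29883569-29885503, plus strand) were identical at 154 of 234 aligned bases (65.8%). Cox6b1 (chr7:30316282-30325616, minus strand) and Cox6b2 (chr7:4754789-4756093, minus strand) were identical at 166 of 257 aligned bases (64.6%).
Cox7b: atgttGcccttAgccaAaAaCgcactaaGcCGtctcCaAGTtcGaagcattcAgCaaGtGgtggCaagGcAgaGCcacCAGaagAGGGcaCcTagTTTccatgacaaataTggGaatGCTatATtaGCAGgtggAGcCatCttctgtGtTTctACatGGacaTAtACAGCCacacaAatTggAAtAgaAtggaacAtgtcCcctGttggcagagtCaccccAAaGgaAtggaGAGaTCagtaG
Cox7b2: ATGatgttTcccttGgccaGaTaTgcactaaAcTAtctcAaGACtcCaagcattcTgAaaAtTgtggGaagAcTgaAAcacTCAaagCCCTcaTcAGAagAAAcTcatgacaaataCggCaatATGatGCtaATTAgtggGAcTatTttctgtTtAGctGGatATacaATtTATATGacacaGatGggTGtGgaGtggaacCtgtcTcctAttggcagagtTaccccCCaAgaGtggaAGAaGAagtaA
Cox7a2: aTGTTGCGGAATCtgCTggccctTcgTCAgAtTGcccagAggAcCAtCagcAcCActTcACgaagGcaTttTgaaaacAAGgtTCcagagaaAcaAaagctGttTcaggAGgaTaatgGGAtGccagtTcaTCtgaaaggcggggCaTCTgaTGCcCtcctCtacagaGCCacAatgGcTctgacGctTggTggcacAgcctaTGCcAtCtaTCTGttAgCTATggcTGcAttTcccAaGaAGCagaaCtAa
Cox7a1: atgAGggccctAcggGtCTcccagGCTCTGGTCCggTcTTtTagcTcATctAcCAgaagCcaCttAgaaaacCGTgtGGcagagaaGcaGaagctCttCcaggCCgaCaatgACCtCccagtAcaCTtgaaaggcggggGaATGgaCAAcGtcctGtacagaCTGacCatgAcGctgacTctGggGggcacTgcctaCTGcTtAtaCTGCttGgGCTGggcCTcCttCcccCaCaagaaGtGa
Cox6b1: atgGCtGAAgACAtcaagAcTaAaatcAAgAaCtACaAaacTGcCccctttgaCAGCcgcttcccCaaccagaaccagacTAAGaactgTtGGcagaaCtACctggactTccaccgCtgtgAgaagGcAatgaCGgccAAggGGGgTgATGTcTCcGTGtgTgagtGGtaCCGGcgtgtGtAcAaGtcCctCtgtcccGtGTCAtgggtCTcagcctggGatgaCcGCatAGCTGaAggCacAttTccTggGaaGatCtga
Cox6b2: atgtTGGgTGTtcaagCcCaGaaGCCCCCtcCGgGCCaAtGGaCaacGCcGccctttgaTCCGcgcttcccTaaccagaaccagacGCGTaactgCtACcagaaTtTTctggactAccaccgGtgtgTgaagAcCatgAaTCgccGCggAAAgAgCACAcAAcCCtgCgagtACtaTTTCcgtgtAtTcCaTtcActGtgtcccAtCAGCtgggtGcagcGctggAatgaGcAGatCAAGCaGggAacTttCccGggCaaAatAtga

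The mitochondrial-encoded genes held a larger share of UMIs than the nuclear-encoded genes in every line, and NIH/3T3 had the largest mitochondrial-encoded share. They took 2.30% of UMIs in N2a cells (95% interval 2.29% to 2.31%), 2.76% in NIH/3T3 cells (2.75% to 2.77%) and 2.19% in mESCs (2.18% to 2.20%). Over the BC1 sequences the lowest, median and highest shares were 1.86%, 2.31% and 2.95% in N2a cells, 2.39%, 2.73% and 3.25% in NIH/3T3 cells, and 1.81%, 2.25% and 2.69% in mESCs. The ranges of the lines overlapped, and the gap between N2a and mESCs was small against the spread between BC1 sequences. When each cell was thinned to 1000 UMIs, which gives all cells the same weight, the order of these 2 lines turned. The shares were then 2.52% in N2a cells, 3.01% in NIH/3T3 cells and 2.59% in mESCs. The medians of single cells kept the order, with 2.11% in N2a cells and 2.04% in mESCs. The 91 nuclear-encoded genes held 1.91% of UMIs in N2a cells (1.90% to 1.91%), 1.94% in NIH/3T3 cells (1.93% to 1.94%) and 1.65% in mESCs (1.64% to 1.66%). The BC1 medians were 1.91%, 1.93% and 1.65% in the same order, and the highest mESC value of 2.06% lay within the ranges of the other lines, whose lowest values were 1.70% in N2a and 1.65% in NIH/3T3. Per nuclear-encoded UMI there were 1.21 mitochondrial-encoded UMIs in N2a cells (1.20 to 1.21), 1.43 in NIH/3T3 cells (1.42 to 1.43) and 1.33 in mESCs (1.32 to 1.33). The BC1 ranges of this ratio were 0.972 to 1.47, 1.08 to 1.82 and 1.14 to 1.59 in the same order, and they overlapped. After thinning to 1000 UMIs the nuclear-encoded shares were 1.94%, 1.96% and 1.63%. Set against the thinned mitochondrial-encoded shares above, the ratio was then highest in mESCs, so its order turned.

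**Figure D1:**
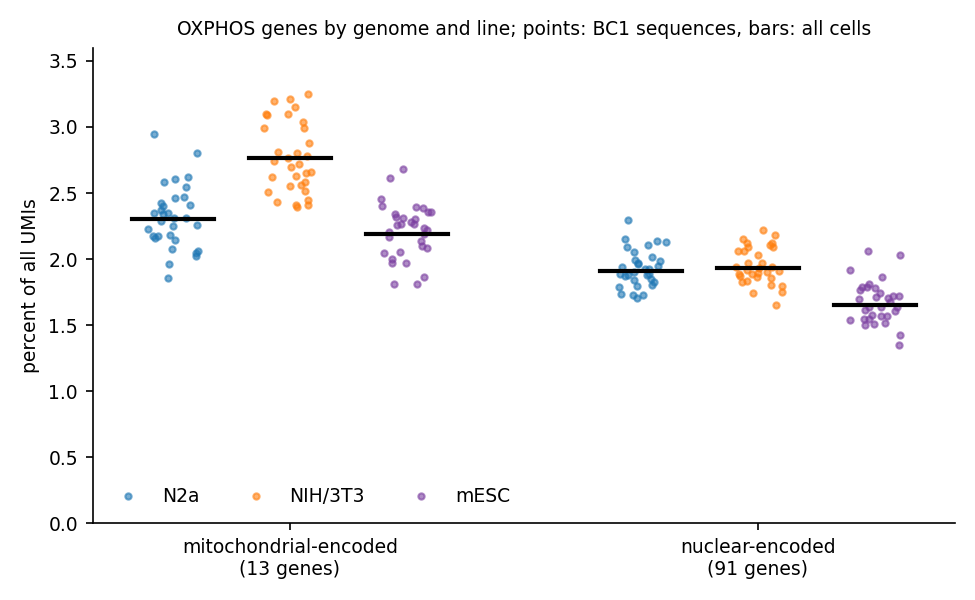
Percent of all UMIs held by the 13 mitochondrial-encoded and 91 nuclear-encoded OXPHOS genes in each line, with 1 point per BC1 sequence (32 per line) and a black bar for all cells of the line. NIH/3T3 sits highest for the mitochondrial-encoded genes at 2.76%, mESCs sit lowest for the nuclear-encoded genes at 1.65%, and the points of the lines overlap in both groups.

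The order of the lines was not the same in every complex, and the largest ratio between lines for the mitochondrial-encoded genes was 1.44 to 2.05 over the 4 complexes, against 1.26 for their total. In complex I, which takes electrons from NADH, the 7 mitochondrial-encoded genes held 0.743% of UMIs in N2a cells, 0.943% in NIH/3T3 cells and 0.631% in mESCs, and the 38 nuclear-encoded genes held 0.574%, 0.507% and 0.433%. N2a therefore had the highest nuclear-encoded share and NIH/3T3 the highest mitochondrial-encoded share of this complex. In complex III, which passes electrons to cytochrome c, the single mitochondrial-encoded gene mt-Cytb held 0.348% in N2a cells, 0.300% in NIH/3T3 cells and 0.182% in mESCs, while the 8 nuclear-encoded Uqcr genes held 0.168%, 0.203% and 0.155%. Cyc1, a further nuclear-encoded subunit of complex III, falls outside the symbol rule and is left out of all complex III values here. The mt-Cytb share was 1.91 times as high in N2a as in mESCs (95% interval 1.88 to 1.94), and the nuclear-encoded share 1.08 times (1.06 to 1.10).

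Complex IV, cytochrome c oxidase, showed the opposite order for its mitochondrial-encoded core. The 3 mitochondrial-encoded genes held 0.759% of UMIs in N2a cells, 0.944% in NIH/3T3 cells and 1.09% in mESCs, so that mESCs were 1.44 times N2a (95% interval 1.43 to 1.45). The 20 nuclear-encoded complex IV genes held 0.476%, 0.534% and 0.463% in the same order, and here mESCs were the lowest line. In complex V the 2 mitochondrial-encoded genes held 0.449% in N2a cells, 0.575% in NIH/3T3 cells and 0.281% in mESCs, a ratio of 2.05 between NIH/3T3 and mESCs (2.02 to 2.07). Its 17 nuclear-encoded genes held 0.653%, 0.658% and 0.566%, and NIH/3T3 was 1.16 times mESCs (1.15 to 1.17).

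**Figure D2:**
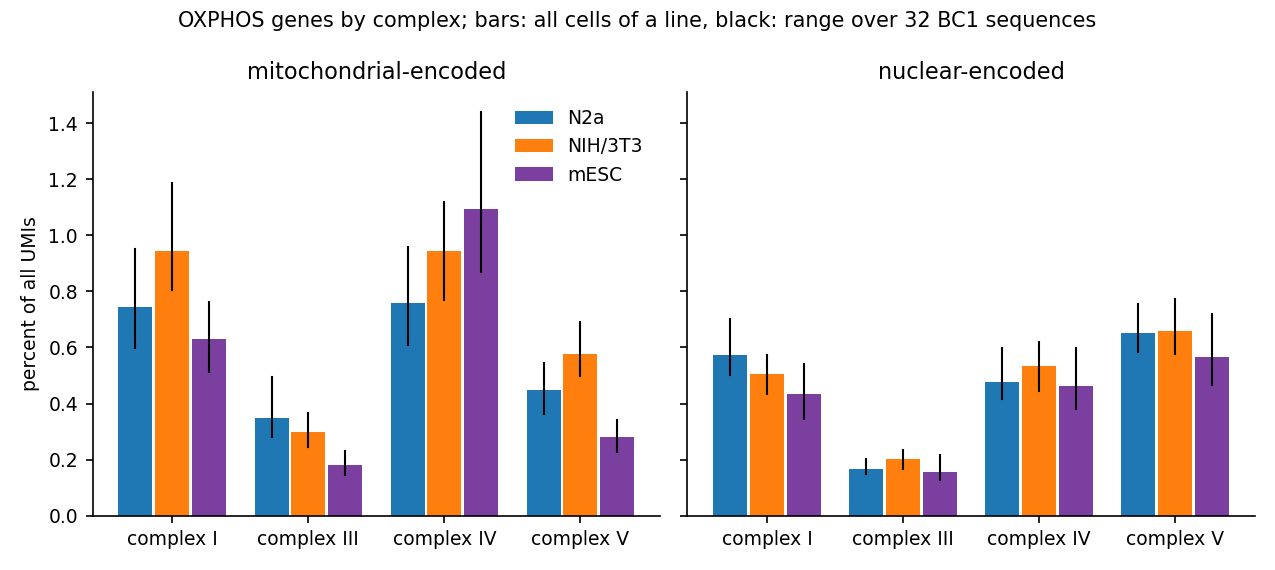
Percent of all UMIs held by the mitochondrial-encoded (left) and nuclear-encoded (right) genes of each complex, with bars for all cells of a line and black lines from the lowest to the highest of the 32 BC1 sequences. The mitochondrial-encoded share of complex IV is highest in mESCs (1.09%), while that of complexes III and V is lowest in mESCs (0.182% and 0.281%), and the nuclear-encoded bars differ less.

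As a share within each complex, mitochondrial-encoded UMIs made up 70.3% of complex IV in mESCs (BC1 range 66.5% to 72.9%), against 61.5% in N2a (57.0% to 65.5%) and 63.9% in NIH/3T3 (55.5% to 68.9%). The mESC range did not overlap that of N2a and did overlap that of NIH/3T3. For complex III the share was 67.5% in N2a cells (61.5% to 73.3%), 59.7% in NIH/3T3 cells (52.3% to 65.5%) and 54.1% in mESCs (44.8% to 59.6%), so the ranges of N2a and mESCs were apart. For complex V it was 40.8% in N2a cells (35.8% to 45.2%), 46.6% in NIH/3T3 cells (40.8% to 52.1%) and 33.1% in mESCs (29.3% to 37.0%), and this was the complex in which nuclear-encoded UMIs outnumbered mitochondrial-encoded ones in every line. For complex I it was 56.4% in N2a cells, 65.0% in NIH/3T3 cells and 59.3% in mESCs, with BC1 ranges that overlapped between all lines.

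The differences in the mitochondrial-encoded totals were unevenly spread over the 13 genes. The level of a gene in a line is given in CPM, its UMIs per 1e+06 UMIs of the line. Of the 13 genes, 1 was at least 1.5 times higher in N2a than in NIH/3T3 on the CPM + 1 scale and 3 the other way, where 25.6% and 25.4% of all 9906 genes with a mean of at least 10 CPM passed. Between N2a and mESCs 6 genes were higher in N2a cells and 2 in mESCs (29.5% and 25.2% of all genes), and between NIH/3T3 and mESCs 7 were higher in NIH/3T3 cells and 0 in mESCs (29.8% and 26.8%). The 13 genes share a few precursors and a single library, so they are not independent of each other.

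Within complex IV, mt-Co1, which holds the heme groups of the oxidase, stood at 1688 CPM in N2a cells, 3681 in NIH/3T3 cells and 5011 in mESCs. The BC1 ranges were 1351 to 2147 CPM, 2587 to 4788 CPM and 4265 to 6253 CPM, so N2a lay apart from both other lines while NIH/3T3 and mESCs overlapped. mESCs were 2.97 times N2a (95% interval 2.93 to 3.01). The other core subunits differed little: mt-Co2, which receives electrons from cytochrome c, was at 2752, 2634 and 2469 CPM, and mt-Co3 was at 3153, 3128 and 3447 CPM, with BC1 ranges that overlapped in both genes. Most of the higher mitochondrial-encoded share of complex IV in mESCs was thus in mt-Co1.

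In complex I, mt-Nd1 was at 1124 CPM in N2a cells, 2880 in NIH/3T3 cells and 1869 in mESCs, and NIH/3T3 was 2.56 times N2a (2.52 to 2.61). The mt-Nd2 gene, its neighbour on the same strand, had another order, with 2128, 2614 and 1374 CPM. Both encode core subunits of the membrane arm, and mt-Nd1 UMIs made up 34.6% of the sum of both genes in N2a cells, 52.4% in NIH/3T3 cells and 57.6% in mESCs. The levels of mt-Nd4 (1882, 1833 and 1450 CPM) and mt-Nd5 (1151, 1222 and 1117 CPM) were close between lines, and their BC1 ranges overlapped. The short genes mt-Nd3 (549, 405 and 215 CPM) and mt-Nd4l (406, 447 and 264 CPM) were lowest in mESCs.

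The largest relative difference among the 13 genes was in mt-Nd6, a core subunit of complex I and the only one of them on the minus strand (chrM:13552-14070). It was at 192 CPM in N2a cells (BC1 range 131 to 269), 32.4 CPM in NIH/3T3 cells (11.6 to 53.3) and 21.9 CPM in mESCs (9.77 to 44.6). The N2a range lay above the other lines, and N2a was 8.74 times mESCs (95% interval 7.72 to 9.93). At least 1 mt-Nd6 UMI was seen in 60.7% of N2a cells, 15.0% of NIH/3T3 cells and 11.2% of mESCs at median depths of 6159.5, 4834 and 4785 UMIs, and in 16.3%, 3.12% and 2.55% of cells after thinning to 1000 UMIs. Of the UMIs of mt-Nd5 and mt-Nd6 together, 14.3% fell to mt-Nd6 in N2a cells, 2.58% in NIH/3T3 cells and 1.93% in mESCs. The sources used here do not say whether reads were counted by strand, so RNA from the plus strand across this region and mt-Nd6 RNA cannot be told apart.

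For complex V, mt-Atp6 was at 3656, 4350 and 2474 CPM in N2a, NIH/3T3 and mESCs, and mt-Atp8 at 837, 1401 and 335 CPM. Both encode membrane subunits of ATP synthase and are read from 1 messenger, with the 43 shared bases shown above. The mt-Atp8 level in NIH/3T3 was 4.18 times that in mESCs (95% interval 4.04 to 4.33) with BC1 ranges apart, at 1102 to 1871 CPM against 197 to 455 CPM, and the mt-Atp6 ratio was 1.76 (1.73 to 1.78). As a share of both genes, mt-Atp8 UMIs were 18.6% in N2a cells, 24.4% in NIH/3T3 cells and 11.9% in mESCs. Because both genes lie on 1 messenger, their UMIs do not measure separate RNAs. The unlike ratios are therefore of UMIs assigned to each gene, and their cause was not tested. In complex III, mt-Cytb was at 3484, 3002 and 1824 CPM, with the mESC range of 1459 to 2290 CPM below both other lines.

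Seen as parts of the mitochondrial-encoded UMIs, the same genes set the lines apart, and this measure does not depend on the total. The mt-Co1 share was 7.34% in N2a cells (BC1 range 5.53% to 9.11%), 13.3% in NIH/3T3 cells (10.8% to 17.1%) and 22.9% in mESCs (20.4% to 25.2%), and the 3 ranges did not overlap. The mt-Cytb share ran the other way, with 15.1% (14.3% to 16.7%), 10.9% (9.60% to 12.0%) and 8.34% (7.48% to 9.21%), again without overlap. Per kilobase of gene, the highest of the 13 was mt-Atp6 in N2a cells (5369 CPM per kilobase), mt-Atp8 in NIH/3T3 cells (6870 CPM per kilobase) and mt-Co3 in mESCs (4396 CPM per kilobase), and the lowest was mt-Nd6 in all 3 (369.8, 62.4 and 42.3 CPM per kilobase).

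**Figure D3:**
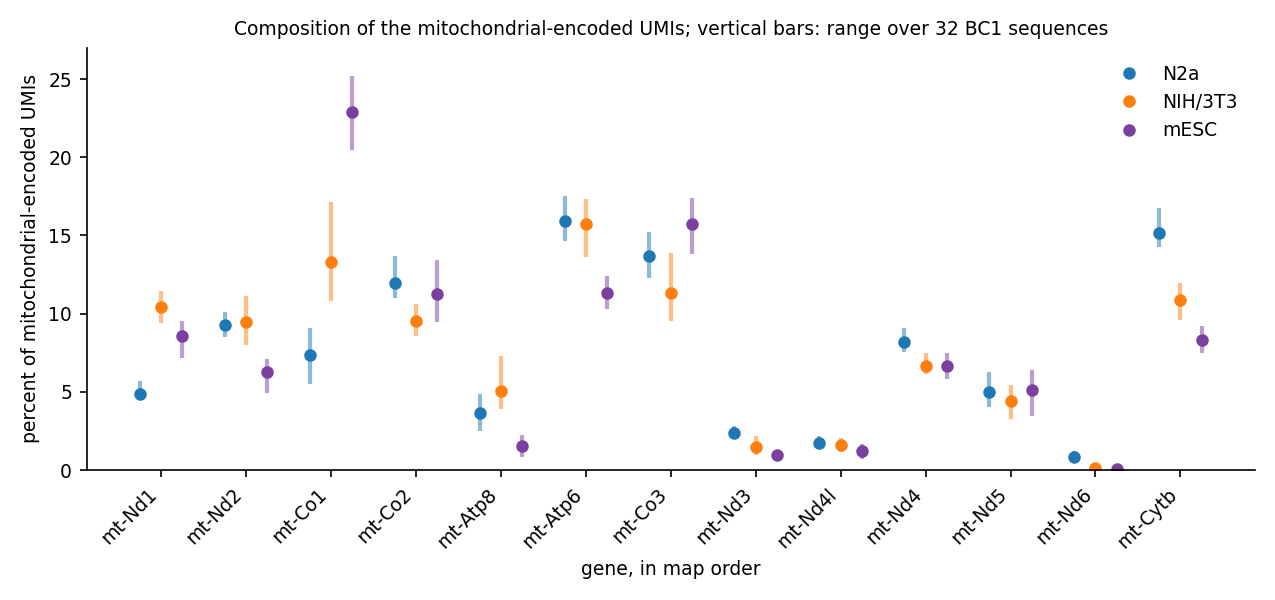
Percent of the mitochondrial-encoded UMIs held by each of the 13 genes, in their order along the mitochondrial DNA, with a point for all cells of a line and a vertical bar for the range over 32 BC1 sequences. The bars of the lines are apart for mt-Co1 (7.34%, 13.3% and 22.9% in N2a, NIH/3T3 and mESCs) and for mt-Cytb (15.1%, 10.9% and 8.34%).

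Copies of mitochondrial DNA in the nuclear genome limit these values. In GRCm39, 7 of the 13 genes (mt-Co1, mt-Co2, mt-Atp8, mt-Atp6, mt-Co3, mt-Nd3 and mt-Nd4l) had a nuclear copy of at least 95% identity over at least 80% of their coding length, the one of mt-Co1 with 97.6% identity and the others with 100%. How reads that match several places were counted is not given in the sources used here, so the levels of these 7 genes are uncertain. mt-Nd1, mt-Nd2, mt-Nd4, mt-Nd5, mt-Nd6 and mt-Cytb had no such copy.

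Most nuclear-encoded genes differed by less than 2-fold between lines. Of the 91, 83 had a mean of at least 10 CPM over the lines. On the CPM + 1 scale the highest line was under 1.5 times the lowest in 38 of these 83 and over 2 times in 15. N2a was the highest line for 37, NIH/3T3 for 34 and mESCs for 12, and mESCs were the lowest line for 44. These counts were not made over all genes, so they do not show whether OXPHOS genes differ from other genes in this. The median over the 83 genes was 184 CPM in N2a cells, 184 CPM in NIH/3T3 cells and 148 CPM in mESCs, against 45.3, 46.2 and 42.4 CPM over all 9906 genes with such a mean.

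Between N2a and NIH/3T3, 7 of the 83 genes were at least 1.5 times higher in N2a (8.43%, against 25.6% of all genes) and 10 in NIH/3T3 (12.0%, against 25.4%). Between N2a and mESCs, 19 were higher in N2a (22.9%, against 29.5%) and 3 in mESCs (3.61%, against 25.2%). Between NIH/3T3 and mESCs, 22 were higher in NIH/3T3 (26.5%, against 29.8%) and 8 in mESCs (9.64%, against 26.8%). In 5 of these 6 counts the members' share was below that of all genes by several percentage points, and for NIH/3T3 above mESCs it was near it. With a limit of 2-fold, 4 of the 83 were higher in N2a than in NIH/3T3 and 3 the other way, where 15.4% and 15.9% of all genes passed. Between N2a and mESCs the counts were 5 and 3 (19.8% and 17.0% of all genes), and between NIH/3T3 and mESCs 4 and 5 (19.7% and 17.7%). The members have higher counts than most genes, and the part of depth in this gap was not tested. The median log2 ratio of CPM + 1 over the 83 genes was 0.04 for N2a over NIH/3T3, 0.27 for N2a over mESCs and 0.28 for NIH/3T3 over mESCs, and over all genes it was 0.02, 0.05 and 0.04.

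Among nuclear-encoded complex I genes, 10 of 35 passed the 1.5-fold limit in N2a over mESCs and 0 in mESCs over N2a, against 29.5% and 25.2% of all genes, and the median log2 ratio was 0.40. The 28.6% of complex I genes higher in N2a is near the share of all genes. For complex V the counts for the same comparison were 4 of 17 and 0, with a median of 0.24, for complex III they were 1 of 8 and 0, with a median of 0.01, and for complex IV they were 3 of 15 each way, with a median of 0.16. N2a was the highest line for 21 of the 35 complex I genes and mESCs the lowest for 22, again without a count over all genes. The 8 assembly factors of complex I (Ndufaf genes) together held 0.0373% of UMIs in N2a cells, 0.0336% in NIH/3T3 cells and 0.0319% in mESCs.

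**Figure D4:**
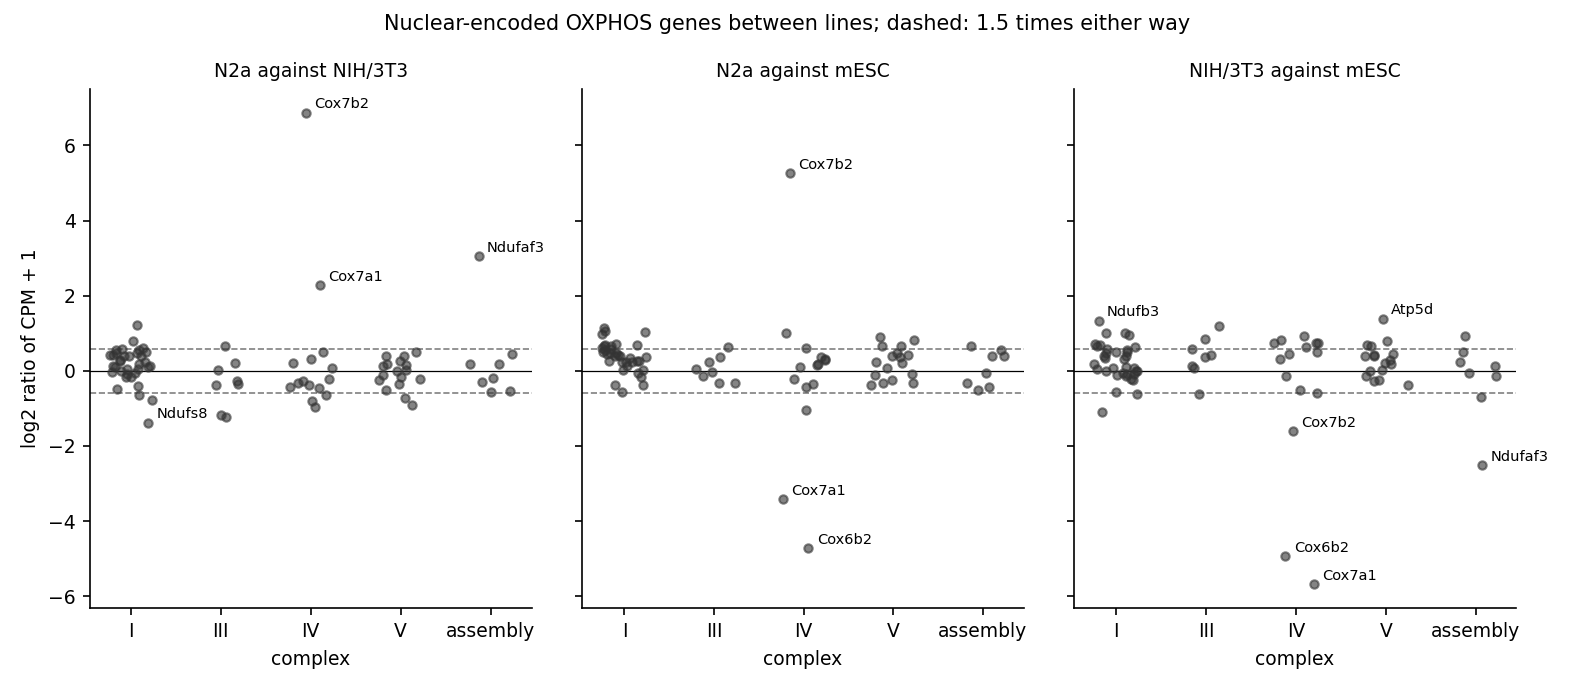
Log2 ratios of CPM + 1 between each pair of lines for the 83 nuclear-encoded OXPHOS genes with a mean of at least 10 CPM, by complex, with dashed lines at 1.5 times either way and labels on genes far from 0. Most points lie between or near the dashed lines, and the points far outside are Cox7b2 (higher in N2a), Cox7a1 and Cox6b2 (higher in mESCs) and Ndufaf3 (lower in NIH/3T3).

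The nuclear-encoded genes that set lines apart most were 3 complex IV genes, each the less widely expressed partner of a pair. Cox7b2, known from testis, was at 156 CPM in N2a cells (2809 UMIs, BC1 range 123 to 207), 0.341 CPM in NIH/3T3 cells (4 UMIs) and 3.08 CPM in mESCs (38 UMIs). N2a was 459 times NIH/3T3, with a counting interval of 179 to 1685 on 4 NIH/3T3 UMIs, and 117 times on the CPM + 1 scale. The NIH/3T3 level was 0.218% of that in N2a, within the 0.0907% to 0.622% at which marker genes of 1 line appeared in another, and the mESC level was 1.97%, above that range. Its partner Cox7b was at 262, 414 and 333 CPM, so Cox7b2 made up 37.4% of the UMIs of both genes in N2a cells (95% interval 36.3% to 38.5%), 0.0823% in NIH/3T3 cells and 0.915% in mESCs. Cox7b2 UMIs were found in 57.1% of N2a cells, 0.195% of NIH/3T3 cells and 1.72% of mESCs, and after thinning to 1000 UMIs in 14.2%, 0.0487% and 0.278%. In N2a the 5% of cells with most Cox7b2 UMIs held 24.7% of them, against 20.5% for Cox7b at its higher level and 25% for mt-Nd6 at 192 CPM. The part of the level in these shares was not tested, so they do not show a subset of cells.

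Cox7a1, the form known from heart and skeletal muscle, was highest in mESCs with 72.2 CPM (892 UMIs, BC1 range 45.4 to 119), against 5.90 CPM in N2a (106 UMIs) and 0.426 CPM in NIH/3T3 (5 UMIs). The mESC range lay above the highest BC1 value of both other lines (14.7 and 10.8 CPM). The N2a level was 8.17% of that in mESCs, and the NIH/3T3 level was 0.590%. Whether these levels arose in the line itself was not tested. The widely expressed partner Cox7a2 was at 309, 401 and 241 CPM, and Cox7a1 made up 23.1% of the UMIs of both genes in mESCs (21.7% to 24.4%), 1.88% in N2a and 0.106% in NIH/3T3. The 5% of mESCs with most Cox7a1 UMIs held 33.1% of them, against 21.0% for Cox7a2 at its higher level.

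Cox6b2, known from testis, was at 37.1 CPM in mESCs (458 UMIs, BC1 range 12.6 to 69.9), 0.445 CPM in N2a (8 UMIs) and 0.256 CPM in NIH/3T3 (3 UMIs). mESCs were 145 times NIH/3T3, with a counting interval of 49.3 to 706 on 3 NIH/3T3 UMIs, and 30.3 times on the CPM + 1 scale. The levels in N2a and NIH/3T3 were 1.20% and 0.689% of that in mESCs. Both values rest on 8 and 3 UMIs, with 95% intervals of 0.192 to 0.877 CPM in N2a and 0.0527 to 0.747 CPM in NIH/3T3. Whether these few UMIs arose in the line itself was not tested. Cox6b1, its partner, was at 262 CPM in N2a cells, 330.4 in NIH/3T3 cells and 215 in mESCs, and Cox6b2 made up 14.7% of the UMIs of both genes in mESCs (13.5% to 16.0%). None of Cox7b2, Cox7a1 and Cox6b2 had a genomic copy of at least 95% identity, while Cox7b had 2 such copies.

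The remaining paired genes showed the widely expressed form in all lines and its partner near 0. Cox4i1, which helps regulate the oxidase, was at 691, 560 and 615 CPM, and Cox4i2, its form of lung and low oxygen, at 2.23, 0.170 and 0.486 CPM. Cox6a1 was at 293, 513 and 271 CPM, and Cox6a2, the muscle form, was at 0.501 CPM in N2a cells, 1.45 CPM in NIH/3T3 cells and 0 of 12347083 UMIs in mESCs, which allows up to 0.243 CPM. Cox8a was at 262, 514 and 308 CPM, Cox8b was listed at 0 in all 3 lines, and Cox8c had 1 UMI in all cells together. Cox7a2l, which takes part in joining complexes III and IV, was at 184, 213 and 121 CPM, and Cox6c at 480, 651 and 389 CPM. Ndufa4, now counted as a complex IV subunit, was at 726 CPM in N2a cells, 516 in NIH/3T3 cells and 362 in mESCs, and its paralog Ndufa4l2 was at most 0.390 CPM. The 3 genes of the ATP synthase c subunit did not share an order: Atp5g1 was highest in mESCs (274, 298 and 327 CPM), Atp5g2 in NIH/3T3 (362, 428 and 272 CPM) and Atp5g3 in N2a (447, 318 and 377 CPM).

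Outside the paired genes, and among genes with a mean of at least 10 CPM, the largest ratios were in subunits of complexes I, III and V and in 1 assembly factor. Ndufaf3, an assembly factor of complex I, was at 23.6 CPM in N2a cells, 1.96 CPM in NIH/3T3 cells (23 UMIs) and 15.8 CPM in mESCs, and N2a was 12.0 times NIH/3T3 (95% interval 7.92 to 19.2), or 8.31 times on the CPM + 1 scale. Ndufs8, an iron-sulfur subunit in the electron path of complex I, was at 34.1, 90.3 and 44.6 CPM, and Ndufb3, a membrane arm subunit, at 96.7, 165 and 64.8 CPM, both highest in NIH/3T3. Ndufv3, an accessory subunit beside the NADH site, was highest in N2a with 157 CPM against 67.0 and 71.0 CPM. In complex III, Uqcrh, the hinge protein next to cytochrome c1, was at 164, 385 and 167 CPM, and Uqcr11 at 162, 365 and 203 CPM. The BC1 range of Uqcrh in NIH/3T3 was 319 to 480 CPM, above the highest BC1 values of 223 CPM in N2a and 279 CPM in mESCs. Atp5d, the delta subunit in the rotor stalk of ATP synthase, was at 217 CPM in N2a cells, 308 in NIH/3T3 cells and 117 in mESCs, with a NIH/3T3 range of 231 to 394 CPM above the mESC range of 69.1 to 161 CPM.

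Per kilobase of transcript, on the mean of the 3 lines, the highest nuclear-encoded genes of the complexes were Ndufb8 (complex I), Uqcrb (complex III), Cox7c (complex IV) and Atp5k (complex V). A UMI stands for a molecule of any length, and the lengths are of a single transcript per gene, so this scale favours short transcripts. By mean CPM, Ndufb8 and Cox7c were also highest. In complex III Uqcrq was highest (397 CPM, Uqcrb 283 CPM), and in complex V Atp5b (768 CPM, Atp5k 346 CPM). Ndufb8 stood at 474, 530 and 471 CPM per kilobase in N2a, NIH/3T3 and mESCs, Uqcrb at 588, 371 and 565, Cox7c at 1274, 1215 and 1733, and Atp5k at 1049, 935 and 817. Of the mitochondrial-encoded genes, mt-Co2, mt-Atp6 and mt-Co3 were above every nuclear-encoded gene in all 3 lines on this scale.

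Some nuclear-encoded members were low, and they were named after their values were seen. Their overlaps and genomic copies are given as a description, and a link to their levels was not tested. Ndufa13, a complex I subunit present in most cells, was listed at 0 in all 3 lines, and its exons in M39 share 15 bases with Yjefn3 on the same strand and 1039 bases with Tssk6 on the other strand. Ndufs5 was at 21.0 CPM in N2a cells, 2.39 CPM in NIH/3T3 cells and 1.94 CPM in mESCs and has a genomic copy with 99.4% identity. Ndufb4 was at 18.8, 12.6 and 28.2 CPM and has 2 copies, the best with 100% identity. In all, 24 of the 91 nuclear-encoded genes had a copy of at least 95% identity over at least 80% of the coding length, and the levels of these 24 are uncertain. Their median over lines was 263 CPM, against 144 CPM for the other 67. Ndufb11b, at 8.42 CPM in mESCs, 0.111 CPM in N2a and 0 in NIH/3T3, was among these 24, with 96.7% identity. Of the genes named earlier, Atp5g1, Atp5g2, Atp5k, Cox6c, Cox7a2l, Cox7b, Cox7c, Ndufb3, Uqcr11 and Uqcrb were also among these 24.

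Promoter windows of 300 bases were found for 74 of the 91 nuclear-encoded genes in RefSeq (GRCm38.p6) and searched on both strands for 4 motifs. The NRF1 core GCGCATGC was in 11 of 74 (14.9%) against 3.05% of 27025 promoters, the ETS core CCGGAAG in 17 (23.0%) against 9.93%, the YY1 core AAGATGGC in 11 (14.9%) against 3.19%, and the TATA box TATAAA in 8 (10.8%) against 15.7%. Of the 3 complex IV genes that set lines apart, Cox7b2 matched TATAAA only as its reverse complement TTTATA, and Cox7a1 and Cox6b2 held none of the 4 motifs. Of their widely expressed partners, Cox7b and Cox7a2 also held none, and Cox6b1 held the ETS core. Strand and distance from the transcript start were not taken into account. A match to TATAAA is thus not shown to be a working TATA box. No motif contains another. A match describes the letters of the window and was not tested as a binding site.

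Other genes of the pathway were counted from lists of named genes. A list of 6 genes held those of complex II, Cycs and the complex III subunit Cyc1. Of these 6, 3 passed the 1.5-fold limit in N2a over mESCs and 0 the other way, where 29.5% and 25.2% of all genes passed. Sdhb, the iron-sulfur subunit of complex II, was at 304, 203 and 96.5 CPM in N2a, NIH/3T3 and mESCs, Cyc1 (cytochrome c1) at 234, 193 and 119 CPM, and Sdhc at 136, 117 and 86.7 CPM. Sdha, the flavoprotein of complex II, was highest in mESCs (99.9, 90.2 and 143 CPM), Sdhd was highest in NIH/3T3 (64.8, 104 and 55.3 CPM), and Cycs (cytochrome c) was at 216, 164 and 146 CPM. Of 29 genes that copy, transcribe and process mitochondrial DNA, which together summed to 1369, 1364 and 1364 CPM, 24 passed the level filter, and of these 1 was higher in N2a and 3 in mESCs between these lines. The largest ratios were in Polg, the mitochondrial DNA polymerase (18.5, 29.1 and 49.3 CPM), and Tefm, a transcription elongation factor (11.2, 16.3 and 23.8 CPM). Of 8 regulators of mitochondrial biogenesis, 7 passed the filter, with 2 higher in N2a, a share near that of all genes, and 3 in mESCs between these lines. Ppargc1b, a coactivator, was at 42.5, 31.4 and 9.56 CPM, and Gabpa, an ETS factor, at 71.7, 75.9 and 172 CPM. Of 41 assembly factors, a list that includes the 8 Ndufaf genes, 12 of 38 were higher in NIH/3T3 than in mESCs (31.6%, near the 29.8% of all genes) and 7 the other way (18.4%, against 26.8%), with Sco2, a copper chaperone of complex IV, at 20.1, 30.5 and 4.29 CPM. The 78 mitochondrial ribosomal protein genes summed to 6296, 6816 and 5696 CPM, and Mrps21 (119, 195 and 43.2 CPM) and Mrps6 (128, 152 and 36.0 CPM) had the largest ratios.

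In single cells the mitochondrial-encoded share had a median of 2.11% in N2a cells (quartiles 1.57% and 2.80%), 2.48% in NIH/3T3 cells (1.97% and 3.13%) and 2.04% in mESCs (1.57% and 2.62%), and the nuclear-encoded share 1.95%, 1.98% and 1.65%. Over 20% of UMIs were mitochondrial-encoded in 7 N2a cells, 15 NIH/3T3 cells and 18 mESCs. In these cells the nuclear-encoded genes held 0.738%, 0.580% and 1.41% of the UMIs that were not mitochondrial-encoded, against 1.95%, 1.99% and 1.69% in the remaining cells. Across cells, Pearson's r between the mitochondrial-encoded percent and the nuclear-encoded percent of the other UMIs was -0.106 in N2a cells (2330 cells), -0.351 in NIH/3T3 cells (2052 cells) and -0.0730 in mESCs (2155 cells). Without the cells over 20%, r was -0.0582 in N2a cells, -0.304 in NIH/3T3 cells and -0.0948 in mESCs, so N2a and mESCs changed order. The cells of a line share a library and differ in depth, which enters both shares.

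The mitochondrial-encoded share moved with depth, and the nuclear-encoded share did so less. In cells with at least 1000 and under 2000 UMIs the mitochondrial-encoded genes held 3.28% in N2a cells, 4.20% in NIH/3T3 cells and 4.45% in mESCs, and in cells with at least 10000 UMIs 2.14%, 2.60% and 1.88%. The nuclear-encoded genes held 1.86%, 1.91% and 1.53% at the lower depth and 1.85%, 1.87% and 1.60% at the higher depth. N2a was thus below mESCs in the shallowest cells and above them from 2000 UMIs on (2.69% and 2.47% under 5000 UMIs). The cause of the relation with depth was not tested.

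**Figure D5:**
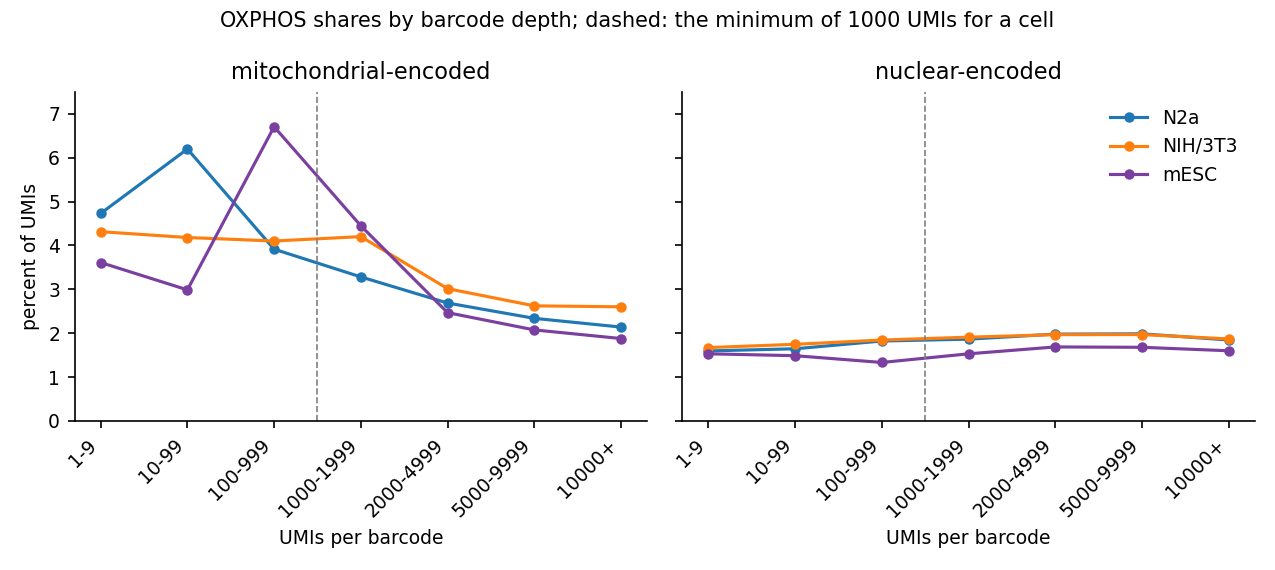
Percent of UMIs held by the mitochondrial-encoded (left) and nuclear-encoded (right) OXPHOS genes by the number of UMIs of the barcode, with 95% exact binomial intervals (mostly smaller than the points) and a dashed line at 1000 UMIs. Right of the line the mitochondrial-encoded share declines in all 3 lines, from 3.28% to 2.14% in N2a cells, 4.20% to 2.60% in NIH/3T3 cells and 4.45% to 1.88% in mESCs, while the nuclear-encoded share stays between 1.53% and 1.99%.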

How the data were processed

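The authors deposited UMI counts per gene and barcode, as 1 matrix per line and 1 of all lines. Per the study's methods, reads were split by BC1, trimmed of the template-switch oligo and aligned and counted with STARsolo on GRCm39 (GENCODE M30), the build also given in the submitters' processing notes. Whether strand was used and how multiply matching reads were counted is not given in the sources used here. Counts were summed over barcodes with at least 1000 UMIs and divided by the UMIs of the line, times 1e+06 (CPM). Median depth was 4785 to 6159.5 UMIs. Intervals of 95% are exact (Clopper-Pearson or Poisson) and cover counting error only. Ratios with an interval are of CPM, while log2 ratios, rankings and 1.5-fold counts used CPM + 1 in genes with a mean of at least 10 CPM. Doublets were not called; instead, the 5% of barcodes with most UMIs were left out as an alternative. Scripts were tested on simulated data.

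The members and lists were chosen with earlier results of these data known. Genes were named by rule: all mitochondrial-encoded members, the 10 nuclear-encoded members with the largest ratio between lines among those with that mean, the member with most UMIs per kilobase in each complex, preset paired genes, the complex II genes, Cycs and Cyc1, and 2 genes for each other list. Cox7b was added as the partner of Cox7b2 after its values were seen. Copies were sought with BLAST 2.17.0 on GRCm39 and transcripts were from GENCODE M39, where all 104 members matched. Scripts ran in Python 3.11.15 with pandas 2.3.3, scipy 1.17.1, numpy 2.4.6 and matplotlib 3.10.9, beside samtools 1.23.1. Counts of genes in the pooled matrix served only as an alternative.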

Additional observations from a re-analysis of the deposited data

Results flagged for a closer look

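Barcodes under 1000 UMIs, which entered only the alternative with all barcodes, held signal of the mitochondrial-encoded genes above the level in cells. These genes took 5.25% of UMIs there in N2a (182830 barcodes with 2696698 UMIs), 4.19% in NIH/3T3 (166613 barcodes with 1770325 UMIs) and 4.30% in mESCs (143330 barcodes with 1528273 UMIs), against 2.30%, 2.76% and 2.19% in cells. The nuclear-encoded genes took 1.69%, 1.75% and 1.45%, below their shares in cells. In N2a, mt-Cytb made up 22.9% of the mitochondrial-encoded UMIs of these barcodes against 15.1% in cells, and mt-Nd3 made up 0.763% against 2.39%. In NIH/3T3 the shares were 12.8% against 10.9% for mt-Cytb and 0.935% against 1.47% for mt-Nd3. In mESCs they were 8.46% against 8.34% for mt-Cytb, and 1.15% against 0.981% for mt-Nd3, which was higher there than in cells. The cause was not tested.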

How the results depend on the processing

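The mitochondrial-encoded percent in N2a, NIH/3T3 and mESCs was 2.28, 2.71 and 2.10 with at least 2000 UMIs per barcode, 2.28, 2.68 and 2.14 with at most 20% mitochondrial UMIs, 2.69, 2.95 and 2.42 over all barcodes, 2.52, 3.01 and 2.59 after thinning, and 2.52, 3.02 and 2.58 as the mean of barcodes. Without the 5% of barcodes with most UMIs it was 2.35 in N2a and 2.25 in mESCs. Thinning and the mean of barcodes, which both give all barcodes the same weight, put mESCs above N2a. The nuclear-encoded percent was 1.88, 1.91 and 1.63 over all barcodes, 1.95, 1.95 and 1.66 without the top 5%, 1.94, 1.96 and 1.63 after thinning, 1.87, 1.90 and 1.62 for subunits only, 2.01, 2.02 and 1.71 with the complex II genes, Cycs and Cyc1 added, and 1.95, 1.99 and 1.69 of the UMIs that were not mitochondrial-encoded. As the mean of barcodes it was 1.94 in N2a and 1.95 in NIH/3T3. With a limit of 2-fold, 4 of 83 nuclear-encoded genes were higher in N2a than NIH/3T3 and 3 the other way (15.4% and 15.9% of all genes), 5 in N2a than mESCs (19.8%), 4 in NIH/3T3 than mESCs and 5 the other way (19.7% and 17.7%).

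Of 774 values of named genes recomputed under these alternatives, 191 moved beyond their counting interval, and 0 of those at 10 CPM or more by over 1.5 times. The order of lines in 10 totals and complex shares was kept in 9 or 10 under each of 6 alternatives; nuclear-encoded complex V turned without the top 5% (0.666% in N2a and 0.664% in NIH/3T3). No paired analysis was possible because each line was 1 sample. Depth limits the genes with few UMIs, such as Cox7b2 and Cox6b2 in NIH/3T3.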
